A study of Mus musculus with 8 samples.

Results

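The genes described here are the ligands and receptors of the tumor necrosis factor (TNF) superfamily and the adaptor *Tradd*, measured by RNAseq in primary lung fibroblasts (pFBs). They were picked by gene symbol, with earlier results of these data known. The rule took all numbered *Tnfsf* and *Tnfrsf* symbols together with *Tnf*, *Lta*, *Ltb*, *Ltbr*, *Fas*, *Fasl*, *Cd40*, *Cd40lg*, *Cd27*, *Cd70*, *Ngfr*, *Eda*, *Edar*, *Eda2r*, *Relt* and *Tradd*, and found 47 of the 54532 entries in the gene table. By role they divide into 18 ligands, 7 receptors with a death domain, 17 receptors without one, 4 decoy receptors or receptors of unassigned signaling, and 1 adaptor.

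The study compared pFBs of homozygous transgenic mice (HOMO), which carry human IGFBP5 (hIGFBP5) under the promoter of elongation factor 1 alpha 1, with pFBs of wild type mice (WT), 4 libraries each. Both genotypes have a C57/black strain background, the mice were female, their age is not given in the sources used here, and the cells grew out of minced lung and were passaged in serum-containing medium without further treatment. How many mice gave the 8 libraries is not stated, so p-values measure only the spread between these libraries, which may be technical. The promoter of the transgene is not restricted to fibroblasts, and the human transgene was not analysed here, so the genotype labels were not checked against it. The study itself reported no detectable transgene in the WT pFBs it sequenced and high levels in the HOMO pFBs.

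Ligands of this family are mostly trimeric type II membrane proteins that can be shed, and they cluster their receptors on the target cell. Several receptors with a death domain recruit FADD or TRADD and can activate caspases, while most other members recruit TRAF proteins and activate NF-kB, JNK or p38. In fibroblasts, TNF and TWEAK (encoded by *Tnfsf12*) are known inducers of inflammatory genes, and Fas is a receptor through which fibroblasts can undergo apoptosis.

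Between 17236521 and 29028769 reads were counted in WT libraries, and between 19009027 and 31987790 in HOMO libraries. Levels are CPM, reads counted for a gene scaled to a normalized library size, and 3 counts, taken as the floor of counting, stood for 0.0908 to 0.172 CPM depending on the library. The pairs WT1/WT2, HOMO1/HOMO2 and HOMO3/HOMO4 were close, with biological coefficients of variation of 4.74 to 7.66% against 31.6 to 58.5% for the other pairs within a genotype. These pairs differed beyond sampling noise and were kept as separate libraries. Whether the libraries of a pair came from the same mouse or culture is not stated, and if they did, n = 4 stands for 3 WT and 2 HOMO units. The 10 fibroblast markers summed to 19040.1 to 25799.7 CPM in WT and 19257 to 32079 CPM in HOMO. The 10 macrophage markers reached 2054 CPM in WT3 and 1200.1 CPM in WT4 but 116 and 148 CPM in WT1 and WT2, and 25.1 to 169 CPM in HOMO. Summed T cell markers stayed under 1 CPM, at 0.0858 to 0.310 in WT and 0.363 to 0.963 in HOMO, with *Cd3d*, *Cd3g* and *Cd2* at 0 throughout. B cell markers summed to 0.113 to 0.348 CPM in WT and 0.0507 to 0.401 in HOMO, with *Cd79b* at 0. The endothelial sums were 2.31 to 8.05 and 2.63 to 5.78 CPM, the epithelial sums 0.281 to 1.55 and 1.6 to 15.4, the mesothelial sums 51.8 to 155 and 92.2 to 131, and the smooth muscle or pericyte sums 80.5 to 306 and 64.4 to 113, WT first in each case. A sum can hide opposite changes of single markers. *Wt1* was at 1.12 to 8.66 CPM in WT and 26.8 to 40.6 in HOMO, while *Krt19* was highest in WT1 and WT2. Of the tested markers, edgeR called 2 of 10 for fibroblasts, 1 of 2 for epithelial, 1 of 5 for mesothelial and 1 of 6 for smooth muscle or pericyte cells. It called 0 of 8 for macrophages and 0 of 2 for endothelial cells, beside 12.1% of all tested genes.

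Expression within the family covered a wide range and was led by receptors rather than ligands. Per kilobase of exon, the highest mean levels over the 8 libraries were those of *Tnfrsf1a* (100.1 CPM per kb), *Tnfrsf12a* (75.3), *Ltbr* (64.9), *Fas* (16.8) and *Tradd* (16.3), followed by the most abundant ligand, *Tnfsf12* (15.0). The median was 0.287 CPM per kb over the 18 ligands, 1.28 over the death domain receptors, and 0.242 over the other receptors. In WT, *Tnfrsf12a* (103 ± 8.50 CPM per kb, SD, n = 4) and *Tnfrsf1a* (99.3 ± 15.3) lay within each other's spread. In HOMO they stood apart, with *Tnfrsf12a* at 47.8 ± 11.0 and *Tnfrsf1a* at 101 ± 11.3 CPM per kb. There *Tnfrsf12a* lay near *Ltbr* (56.7 ± 3.23), from which it differed by less than its spread.

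**Figure D1:**
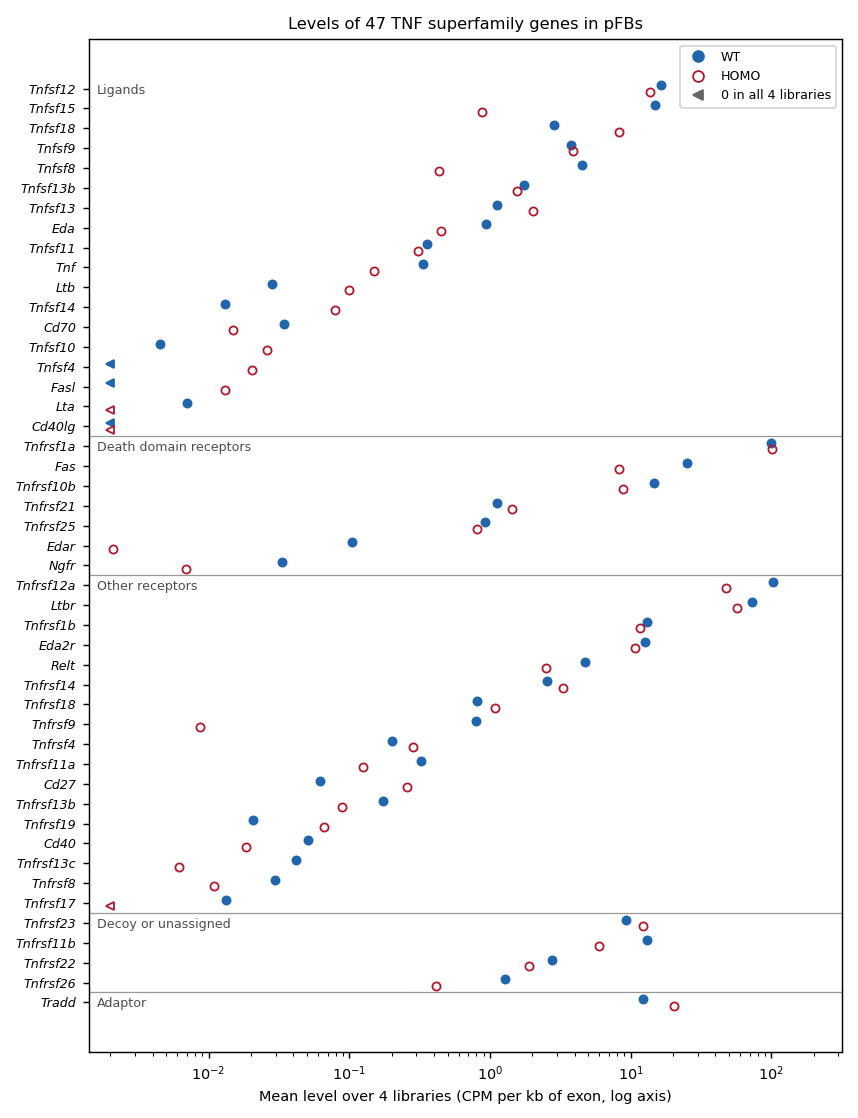
Mean level of each of the 47 genes over 4 WT (filled) and 4 HOMO (open) libraries, in CPM per kb of exon on a log axis, grouped by role, with triangles at the left edge for a mean of 0. *Tnfrsf1a*, *Tnfrsf12a* and *Ltbr* lie to the right of every ligand, and *Fas* falls from 25.3 in WT to 8.23 in HOMO.

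Of the 47 genes, 26 had enough counts to be compared between the genotypes with edgeR's quasi-likelihood test, and 2 were called as differentially expressed genes (DEGs). A call needed a Benjamini-Hochberg adjusted p under 0.05 and a log2 fold change beyond 0.6 in either direction. Both were receptors and both were downregulated in HOMO: *Fas* and *Tnfrsf12a*. These 2 make 7.69% of the tested members, against 12.1% of all 14150 tested genes, 6.18% of which were called lower and 5.94% higher in HOMO. The other 24 tested members were not called. At an unadjusted p under 0.05 there were 10 members, 3 higher and 7 lower in HOMO, where 32.3% of all tested genes pass. The fitted log2 fold changes of 9 members were above 0 and those of 17 below, with a median of −0.24 (−0.04 over all tested genes). In 7 tested members (26.9%) no HOMO library fell within the WT range or the reverse, which was close to the 27.3% of all tested genes. *Tnfsf13* was the one of these that lay higher in HOMO, and *Fas*, *Tnfrsf12a*, *Tnfrsf10b*, *Tnfrsf26*, *Eda* and *Ltbr* lay lower. DESeq2, the tool of the study, gave 35 members an adjusted p and called 11 of them at the same thresholds, beside 16.5% of all genes. To *Fas* and *Tnfrsf12a* it added *Eda*, *Edar*, *Tnfrsf9*, *Tnfrsf10b*, *Tnfsf8* and *Tnfsf15* as lower and *Tradd*, *Tnfsf13* and *Cd27* as higher in HOMO.

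**Figure D2:**
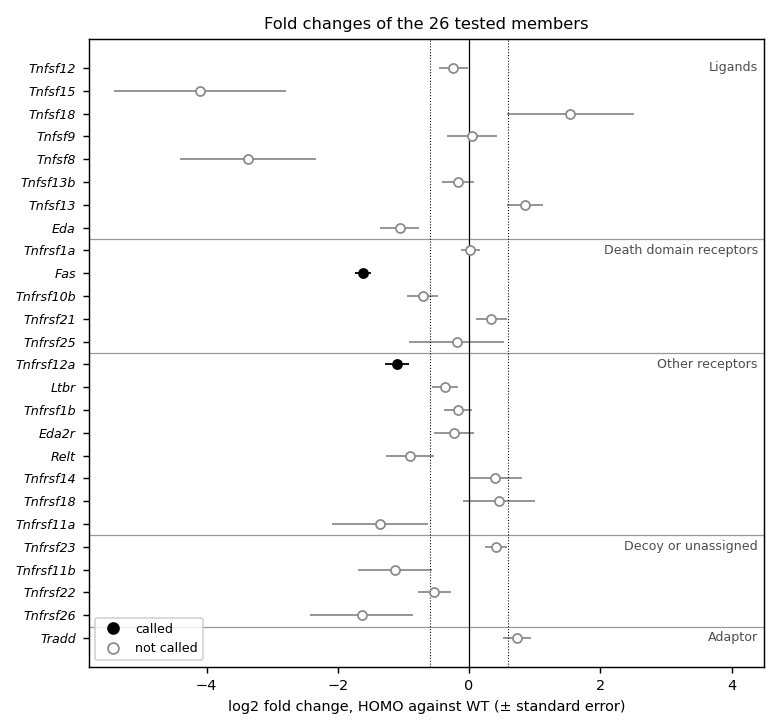
Log2 fold change of HOMO against WT with its standard error for the 26 tested members, grouped by role, with dotted lines at 0.6 on either side of 0. *Fas* (−1.62) and *Tnfrsf12a* (−1.10) are the called members (filled), while *Tnfsf15* and *Tnfsf8* have larger fitted changes with wide errors.

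*Fas* encodes the death receptor for Fas ligand and lies on chromosome 19 from 34290666 to 34327772 (GRCm38). Its levels in WT1 to WT4 were 49.4, 52.3, 54.2 and 52.7 CPM. HOMO1 to HOMO4 had 16.6, 18.7, 15.7 and 16.9 CPM. All 4 HOMO libraries were far below all 4 WT libraries, and neither genotype varied much (52.2 ± 2.02 against 17 ± 1.24 CPM, SD, n = 4). The log2 fold change was −1.62 with a standard error (SE) of 0.12 (edgeR adjusted p = 0.000417). It stayed between −1.66 and −1.58 with each library left out in turn, and *Fas* was called in all 8 of these fits, those without WT3 and WT4 included. When near-identical libraries were summed into 3 WT and 2 HOMO units, the log2 fold change was −1.61 and the edgeR adjusted p 0.161, in a fit that called 0 of all genes, 2057 of which passed an unadjusted p of 0.05. On the summed units DESeq2 called 735 genes, *Fas* among them. In bulk libraries, fewer cells that express a gene and less RNA per cell cannot be told apart. *Fasl*, the ligand of Fas, was counted 2 times in HOMO3 and 0 times in the other 7 libraries.

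*Tnfrsf12a* encodes Fn14, the small receptor for TWEAK, which has no death domain and signals through TRAF proteins. It lies on chromosome 17 from 23675445 to 23677468. WT1 to WT4 had 222, 197, 190.4 and 185 CPM. HOMO1 and HOMO2 were lowest with 74.4 and 73.8 CPM, and HOMO3 and HOMO4 had 112 and 109.8. The genotypes did not overlap (199 ± 16.4 against 92.4 ± 21.2 CPM, SD, n = 4), with a log2 fold change of −1.10 (SE 0.18, edgeR adjusted p = 0.00836). This value lay between −1.21 and −1.0 with each library left out, and the gene was called in all 8 fits, with an adjusted p up to 0.0346. With near-identical libraries summed the adjusted p was 0.293, and DESeq2 did not call it on the summed units. Its ligand *Tnfsf12* had overlapping levels of 24.7 ± 7.93 CPM in WT and 20.8 ± 1.57 in HOMO (log2 fold change −0.24, SE 0.22, edgeR adjusted p = 0.478). *Tnfsf12* shares 48.3% of its exon bases with the read-through gene *Tnfsfm13* on the same strand, so its count is uncertain.

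The bases upstream of *Fas* and *Tnfrsf12a* are shown because these were the genes called in the main comparison. Both were read from RefSeq on GRCm38.p6 and are written 5′ to 3′ on the strand of the gene, *Fas* at chr19:34290409-34290658 on the plus strand and *Tnfrsf12a* at chr17:23677469-23677699 on the minus strand. Capitals mark matches to the AP-1 motif TGANTCA or the GC box GGGCGG, searched on both strands.
Fas: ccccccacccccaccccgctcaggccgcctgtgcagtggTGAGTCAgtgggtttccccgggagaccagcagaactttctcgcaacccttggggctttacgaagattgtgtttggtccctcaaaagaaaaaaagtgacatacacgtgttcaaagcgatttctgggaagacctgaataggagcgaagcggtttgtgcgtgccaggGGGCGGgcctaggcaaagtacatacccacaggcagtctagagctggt
Tnfrsf12a: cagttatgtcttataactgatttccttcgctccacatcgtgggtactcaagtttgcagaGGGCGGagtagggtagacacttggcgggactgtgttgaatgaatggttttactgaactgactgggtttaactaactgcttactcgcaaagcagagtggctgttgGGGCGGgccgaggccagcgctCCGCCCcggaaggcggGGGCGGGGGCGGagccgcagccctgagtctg
In the 250 bases before its RefSeq start, *Fas* held 1 AP-1 match and 1 GC box. The same search found 5 GC boxes, 2 of them adjacent, before *Tnfrsf12a* and no AP-1 match. Of 32851 RefSeq windows of this length, 6.75% held the AP-1 motif, 32.7% the GC box, 7.25% the NF-kB motif and 12.4% the TATA box TATAAA, and the last pair had no match in either sequence. Among the 36 members with a window in the table, 6 held the AP-1 motif, 19 the GC box, 4 the NF-kB motif and 7 the TATA box. G and C made up 56.4% of the window of *Fas* and 58.8% of that of *Tnfrsf12a*, against a median of 52.4%. A match is a stretch of letters and was not tested for binding.

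Of the other death domain receptors, *Tnfrsf10b*, the mouse receptor for TRAIL, did not overlap between the genotypes. WT1 and WT2 had 102 CPM each, and WT3 and WT4 had 56.4 and 56.8. The HOMO libraries had 48.3, 48.1, 50.4 and 46.8 CPM. The distance between the pairs of WT libraries was thus larger than that from WT3 and WT4 to HOMO, and the gene was not called (log2 fold change −0.71, SE 0.23, edgeR adjusted p = 0.0697, DESeq2 adjusted p = 0.0458). Its ligand *Tnfsf10* had 0 to 6 counts per library, and HOMO3 and HOMO4 held the 2 highest counts of 4 and 6. *Tnfrsf1a*, the ubiquitous receptor for TNF and the most abundant member, had 217, 229.9, 298 and 284 CPM in WT and 280.1, 293, 235 and 239 in HOMO. The 2 ranges overlapped almost fully and the fitted change was 0.02 (SE 0.15, edgeR adjusted p = 0.933). *Tnfrsf21*, the death receptor DR6, was at 4.64 ± 0.819 and 5.89 ± 0.833 CPM (edgeR adjusted p = 0.322). *Tnfrsf25*, the receptor of the ligand encoded by *Tnfsf15*, was highest in WT4 with 5.69 CPM and between 0.344 and 2.42 CPM elsewhere, and was not called (edgeR adjusted p = 0.885). *Ngfr*, the low-affinity neurotrophin receptor, had at most 4 counts in a library.

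**Figure D3:**
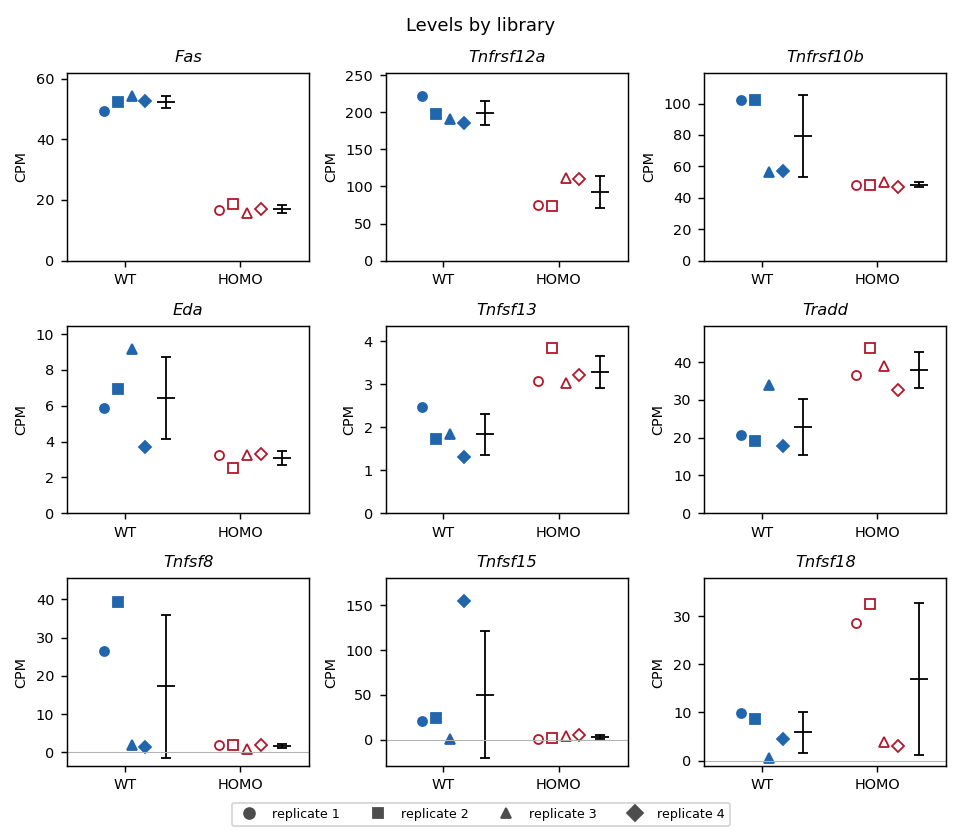
CPM of 9 members in each library, by replicate number, with bars for the mean ± SD of 4 libraries. *Fas* is tight within each genotype and separate between them. *Tnfrsf12a* is separate too, with HOMO1 and HOMO2 below HOMO3 and HOMO4. *Tnfrsf10b* is high in WT1 and WT2 alone, and *Tnfsf8*, *Tnfsf15* and *Tnfsf18* differ more between libraries of one genotype than between the means.

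Ectodysplasin signaling, known for its part in the development of skin appendages, was represented by *Eda*, *Edar*, *Eda2r* and *Edaradd*. *Eda* and *Edar* were at low levels, with all HOMO libraries below all WT libraries. The receptor *Eda2r* was more abundant and overlapped between the genotypes. *Eda*, the ligand, had 5.85, 6.95, 9.18 and 3.72 CPM in WT. The HOMO libraries had 3.25, 2.54, 3.24 and 3.31 CPM, all below the lowest WT library, WT4. The log2 fold change was −1.06 (SE 0.30, edgeR adjusted p = 0.0522, DESeq2 adjusted p = 0.00977), so the gene was not called by edgeR. It was called with genes restricted to CPM above 1 in at least 4 libraries (adjusted p = 0.0494) and without WT4 (0.0197). *Edar*, the receptor for the longer main isoform of ectodysplasin, was counted 7, 4, 7 and 14 times in WT and 0, 1, 0 and 0 times in HOMO. This put *Edar* at least 2.86-fold lower in HOMO, taken against the floor of 3 counts per library, with p = 0.0286 in a two-sided exact permutation test over the 70 assignments of libraries, the smallest that 4 against 4 libraries allow (0.143 after adjustment over 15 members tested in this way). The exact test takes the libraries as independent. Its p is too small if libraries of a close pair share a mouse or culture. *Edar* was outside the edgeR test, but edgeR without a filter on low counts (adjusted p = 0.0204) and DESeq2 (adjusted p = 0.00298) called it. *Eda2r*, the receptor for the shorter main isoform, had 95.3, 107, 41.1 and 52.8 CPM in WT and 71.8, 70.9, 54.0 and 55.8 in HOMO. Its genotypes overlapped and its fitted change was −0.23 (SE 0.30, edgeR adjusted p = 0.633). The adaptor *Edaradd* had 0 to 18 counts per library (two-sided exact permutation p = 0.943).

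Among the 18 ligands, 8 were tested and edgeR called 0. Of these 8, 4 had an unadjusted p under 0.05 in the edgeR test, beside 32.3% of all tested genes. DESeq2 called the same 4 genes, *Eda*, *Tnfsf8*, *Tnfsf15* and *Tnfsf13*, beside 16.5% of all genes. The study, which used DESeq2 at these thresholds, lists *Eda*, *Tnfsf8* and *Tnfsf15* as downregulated and *Tnfsf13* as upregulated. *Tnfsf8* (the ligand of CD30) had 26.4 and 39.3 CPM in WT1 and WT2 but 1.89 and 1.55 in WT3 and WT4. HOMO libraries had 1.92, 2.06, 0.811 and 1.85 CPM, which overlapped with WT3 and WT4. The log2 fold change of −3.37 (SE 1.03, edgeR adjusted p = 0.0625, DESeq2 adjusted p = 0.00105) thus rested on WT1 and WT2, and was −2.58 without WT2. Its receptor *Tnfrsf8* had at most 6 counts in a library. *Tnfsf15*, its neighbor on chromosome 4 and the gene of the cytokine TL1A, had 21.4, 24.2, 0.516 and 155 CPM in WT. Levels in HOMO were 1.03, 1.51, 4.0 and 5.26 CPM. WT3 lay below every HOMO library and WT4 far above all others, and the log2 fold change was −4.10 (SE 1.31, edgeR adjusted p = 0.0714, DESeq2 adjusted p = 0.0103). Without WT4 it was −2.39 (edgeR adjusted p = 0.16). Over all tested genes of chromosome 4, the median level of WT4 was 0.36 above the other WT libraries on the log2 scale, and the part of this in *Tnfsf15* and *Tnfrsf25* was not tested.

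*Tnfsf13* encodes APRIL, a survival factor for plasma cells. It had 2.48, 1.72, 1.84 and 1.32 CPM in WT and 3.08, 3.84, 3.04 and 3.21 in HOMO. All HOMO libraries lay above all WT libraries, with a log2 fold change of 0.85 (SE 0.28, edgeR adjusted p = 0.0764, DESeq2 adjusted p = 0.0259). *Tnfsf13* shares 60.0% of its exon bases with *Tnfsfm13* on the same strand and 13.5% with *Tnfsf13os* on the other, and its count is uncertain for this reason. Of its receptors, *Tnfrsf17* had at most 1 count in a library, and *Tnfrsf13b* had 2, 1, 16 and 23 counts in WT and 3, 7, 13 and 0 in HOMO. The related ligand *Tnfsf13b* (BAFF) was at 11.9 ± 3.85 and 10.6 ± 1.41 CPM and was not called (edgeR adjusted p = 0.673). *Tnfsf18*, the ligand of GITR, was named after its values were seen. It was at 28.6 and 32.6 CPM in HOMO1 and HOMO2, at 3.80 and 3.01 in HOMO3 and HOMO4, and at 9.79, 8.71, 0.516 and 4.41 in WT. HOMO3 and HOMO4 lay within the WT range, and the fitted change of 1.54 had a standard error of 0.97 (edgeR adjusted p = 0.302).

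Of the 17 receptors without a death domain, 8 were tested and *Tnfrsf12a* was the one called. *Ltbr*, the lymphotoxin beta receptor, had 146, 146, 254 and 142 CPM in WT and 138, 142, 127 and 126 in HOMO. Its genotypes did not overlap by a narrow margin, since the lowest WT library and the highest HOMO library both rounded to 142 CPM. WT3 stood apart, and the change was not called (log2 fold change −0.37, SE 0.20, edgeR adjusted p = 0.246). Its ligands were close to absent, with *Lta* at 1 count in WT4 alone, *Ltb* at 0 to 6 counts and *Tnfsf14* at 0 to 9 counts per library. *Relt* fell short of the adjusted threshold (15.4 ± 4.18 against 8.26 ± 3.85 CPM, edgeR adjusted p = 0.133). *Tnfrsf1b*, the second TNF receptor, had 49.7 ± 13.0 and 44.2 ± 4.68 CPM (edgeR adjusted p = 0.608). The adjusted p of *Tnfrsf14*, *Tnfrsf18* and *Tnfrsf11a* were 0.532, 0.609 and 0.231 in the edgeR test. *Tnfrsf18* shares 27.2% of its exon bases with *Gm16008*, and the ligand gene *Tnfsf9* shares 14.9% with *Gm11110*, both on the opposite strand, which leaves their counts uncertain.

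Decoy receptors and receptors of unassigned signaling were all tested, and 0 of the 4 were called by edgeR or DESeq2, with *Tnfrsf23* at an unadjusted p under 0.05. *Tnfrsf26* had 2.93, 3.05, 6.14 and 4.30 CPM in WT and 0.312, 0.182, 2.33 and 2.51 in HOMO. All HOMO libraries were lower, and HOMO1 and HOMO2 were far below HOMO3 and HOMO4, so the log2 fold change of −1.64 had a standard error of 0.78 (edgeR adjusted p = 0.185). Its neighbors on chromosome 7, the decoy TRAIL receptors *Tnfrsf22* and *Tnfrsf23*, had fitted changes of −0.53 and 0.41 (edgeR adjusted p = 0.172 and 0.138). These 3 genes are close paralogs and reads may be split between them. In WT3 the median level of chromosome 7 genes stood 0.36 above the other WT libraries on the log2 scale. Over 1045 tested genes of chromosome 7 the median log2 fold change was −0.29. The part of this shift in these genes, and in *Relt* on the same chromosome, was not tested. *Tnfrsf11b* encodes osteoprotegerin, the soluble decoy for RANKL. It had 60.6, 55.2, 7.52 and 23.0 CPM in WT and 13.0, 11.5, 23.8 and 18.6 in HOMO, and WT3 lay below every HOMO library (log2 fold change −1.13, SE 0.57, edgeR adjusted p = 0.209).

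*Tradd*, the adaptor that links TNFR1 to TRAF2, RIPK1 and FADD, had 20.8, 19.1, 33.9 and 17.8 CPM in WT and 36.5, 43.7, 38.9 and 32.6 in HOMO. WT3 overlapped with HOMO, and the other WT libraries lay below it. The log2 fold change was 0.73 (SE 0.22, edgeR adjusted p = 0.0631, DESeq2 adjusted p = 0.0305). *Tradd* lies on chromosome 8, where the median log2 fold change over 790 tested genes was 0.37, and the part of this shift in *Tradd* was not tested. WT3 mattered for several members. Without it edgeR called 9 members (15.0% of all genes tested in that fit), with *Tradd* (adjusted p = 0.00503), *Tnfsf15* (0.0164), *Tnfrsf10b* (0.0271), *Tnfsf8* (0.0288), *Tnfrsf11b* (0.0354), *Tnfrsf22* (0.0366) and *Tnfrsf14* (0.0430) added to *Fas* and *Tnfrsf12a*. Without WT4, 5 members and 12.8% of all genes were called, *Eda*, *Tnfrsf10b* and *Tnfsf8* being added, and without WT2 (8.29% of all genes) the additional call was *Tnfrsf9*.

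The 21 members outside the test included many ligands and receptors known from lymphocytes. Of these, 6 (*Cd70*, *Tnfsf4*, *Fasl*, *Lta*, *Tnfrsf17* and *Cd40lg*) had 3 or fewer counts in every library, and *Cd40lg* had 0 counts in all. For the other 15, CPM values were set against each other in exact permutation tests (two-sided), and 3 of them, *Edar*, *Tnfrsf9* and *Cd27*, reached the smallest possible p of 0.0286 (adjusted p = 0.143). These p-values are too small if libraries of a close pair share a mouse or culture. *Tnfrsf9* encodes the costimulatory receptor 4-1BB and was counted 11, 7, 121 and 22 times in WT and 1, 0, 1 and 0 times in HOMO. This gave a level at least 16.5-fold lower in HOMO against the floor of 3 counts per library, and without WT3, which held 121 of the WT counts, at least 4.48-fold lower. DESeq2 (adjusted p = 5.12e-05) and edgeR without a filter on low counts (0.0163) called it. Its ligand *Tnfsf9* had 4.87 ± 2.37 and 5.0 ± 1.43 CPM and an edgeR adjusted p of 0.952. For the remaining genes of this group, among them *Tnfrsf4* (OX40), *Tnfrsf19*, *Cd40* and *Tnfrsf13c* (the BAFF receptor), the two-sided exact permutation p ranged from 0.114 to 0.857, and none of these 4 had more than 19 counts in a library. *Cd27*, a costimulatory receptor of lymphocytes, was counted 3, 4, 0 and 6 times in WT and 22, 22, 8 and 7 times in HOMO. All HOMO libraries were above all WT libraries in CPM (0.601 ± 0.288 against 0.143 ± 0.0998, SD, n = 4), and the DESeq2 adjusted p was 0.0482. Of the T cell markers, *Lck* was counted 2, 1, 1 and 1 times in WT and 11, 11, 18 and 14 times in HOMO. Without *Lck*, a choice made after its values were seen, the summed T cell markers were 0.0 to 0.271 CPM in WT and 0.0303 to 0.150 in HOMO. The part of T cell RNA in *Cd27* was not tested.

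*Tnf* itself was counted 5, 3, 18 and 19 times in WT and 0, 1, 8 and 11 times in HOMO (two-sided exact permutation p = 0.286). The WT libraries with the high counts, WT3 and WT4, were those with the high macrophage markers, and HOMO3 and HOMO4 carried more of both than HOMO1 and HOMO2. *Tnfrsf11a*, which encodes RANK and is known from the osteoclast and macrophage lineage, had 0.619, 0.729, 3.96 and 2.40 CPM in WT and 0.490, 0.272, 0.760 and 1.5 in HOMO. *Tnfrsf13b* was highest in WT3 and WT4 and next in HOMO3. It had 0 counts in HOMO4, although that library had the highest macrophage marker sum in HOMO (169 CPM). *Tnfrsf9* was high in WT3 alone, although WT4 also had high macrophage markers. Of the 10 macrophage markers 8 were tested and 0 called by edgeR. The part of macrophage RNA in these members was not tested. *Tnfsf11*, which encodes RANKL, had 7, 1, 47 and 2 counts in WT and 5, 2, 24 and 25 in HOMO (two-sided exact permutation p = 0.857).

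**Figure D4:**
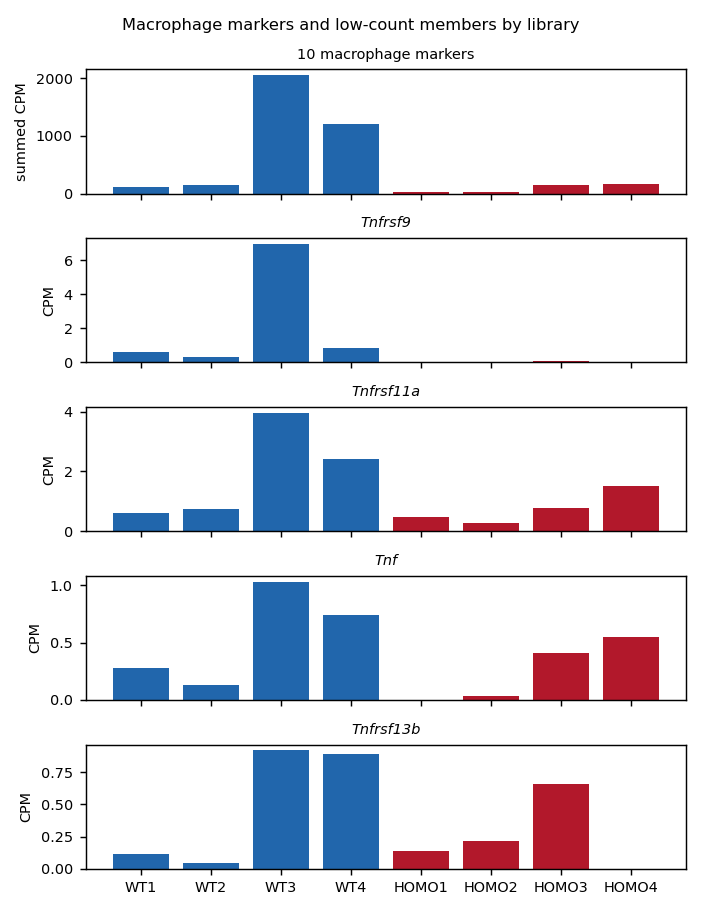
Summed CPM of 10 macrophage markers (top) and CPM of *Tnfrsf9*, *Tnfrsf11a*, *Tnf* and *Tnfrsf13b* in each of the 8 libraries, WT in blue and HOMO in red, on axes that start at 0. WT3 (2054) and WT4 (1200.1) have the highest marker sums, and all 4 genes are highest in WT3 or WT4.

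Downstream of the receptors, a list of 47 intracellular genes of TNF signaling was read from the same fit. Of 45 tested, 5 were called (11.1%, beside 12.1% of all genes), 3 upregulated and 2 downregulated in HOMO, and 40 were not called. The median log2 fold change was 0.04. In 13 genes (28.9%) the genotypes did not overlap, 9 higher and 4 lower in HOMO, which was close to the 27.3% of all tested genes. *Map3k5*, the stress kinase ASK1 that acts upstream of JNK and p38, had 14.1, 22.0, 9.76 and 35.1 CPM in WT and 83.1, 80.3, 68.1 and 70.2 in HOMO. All HOMO libraries were well above WT (log2 fold change 1.89, SE 0.36, edgeR adjusted p = 0.0140). *Ikbkb*, which encodes the catalytic subunit IKK-beta, rose from 64.7 ± 4.71 to 102 ± 13.6 CPM (log2 fold change 0.66, SE 0.13, edgeR adjusted p = 0.0181). It lies on chromosome 8, whose genes had a median log2 fold change of 0.37. *Adam17*, the sheddase that releases TNF and several receptors, rose from 47.7 ± 9.18 to 81.5 ± 19.9 CPM (log2 fold change 0.77, SE 0.21, edgeR adjusted p = 0.0464), with HOMO1 and HOMO2 higher than HOMO3 and HOMO4. It lies on chromosome 12, where the median log2 fold change over 501 tested genes was 0.24. The part of these chromosome shifts in *Ikbkb* and *Adam17* was not tested. The call of *Adam17* was kept in 2 of 8 fits with a library left out (without WT3 and without WT4), with an adjusted p of up to 0.139. That of *Ikbkb* was kept in 6 of 8, being lost without HOMO1 (0.0720) and without HOMO2 (0.0725).

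The downregulated genes of this list were an NF-kB inhibitor and the death domain adaptor. *Nfkbie*, which encodes I-kappa-B epsilon and is itself a known NF-kB target, had 13.9, 13.0, 21.6 and 13.8 CPM in WT and 7.4, 7.99, 6.13 and 5.01 in HOMO. The genotypes did not overlap (log2 fold change −1.23, SE 0.24, edgeR adjusted p = 0.0163). *Fadd*, the adaptor between Fas and caspase-8, had 15.6, 14.6, 16.3 and 12.8 CPM in WT and 8.43, 9.44, 10.7 and 10.4 in HOMO. Its log2 fold change of −0.60 lay at the fold change threshold (SE 0.17, edgeR adjusted p = 0.0466). Over 1045 tested genes of chromosome 7, where *Fadd* lies, the median log2 fold change was −0.29. The part of this shift in *Fadd* was not tested. *Fadd* was called in 1 of 8 fits with a library left out, the one without WT4, with an adjusted p of up to 0.150 and a log2 fold change between −0.67 and −0.54. *Casp8*, the initiator caspase recruited by FADD, was at 37.1 ± 5.74 and 34.2 ± 2.65 CPM and was not called (edgeR adjusted p = 0.607). *Nfkbia*, another inhibitor of NF-kB, had an adjusted p of 0.0316 in the edgeR test but a log2 fold change of −0.58, under the threshold. *Traf1*, outside the test, was counted 13, 20, 12 and 6 times in WT and 0, 2, 0 and 3 times in HOMO, and was at least 4.76-fold lower in HOMO against the floor of 3 counts per library (two-sided exact permutation p = 0.0286). Without HOMO1, edgeR called 0 genes of the list, 12 of which had an unadjusted p under 0.05, while its calls over all genes went from 12.1% to 3.52%. *Map3k5* then had a log2 fold change of 1.85 (edgeR adjusted p = 0.0502) and *Nfkbie* of −1.28 (0.0535). Without WT4, 8 genes of the list were called, beside 12.8% of all genes. DESeq2 on all 8 libraries called 7, beside 16.5% of all genes.

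**Figure D5:**
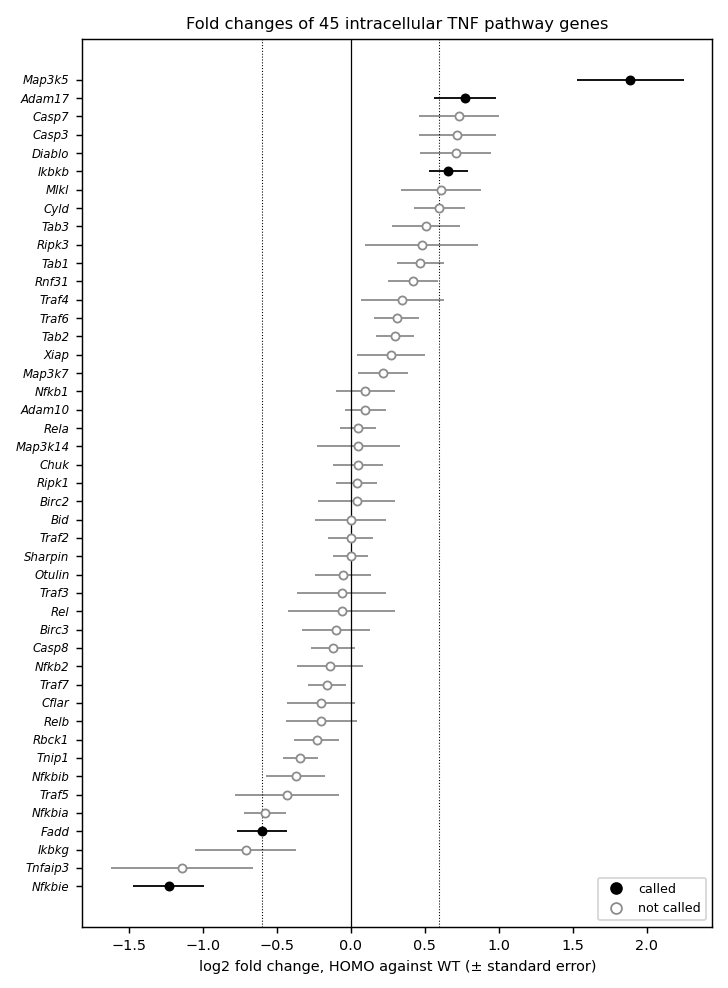
Log2 fold change of HOMO against WT with its standard error for the 45 tested intracellular genes, ordered by value, with dotted lines at 0.6 on either side of 0 and called genes filled. *Map3k5* (1.89) and *Nfkbie* (−1.23) lie at the ends, and most genes lie between the lines.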

How the data were processed

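The deposited values are whole-number counts per gene, produced by the authors with fastp, STAR (mm10) and featureCounts. Versions, annotation and strand setting are not given in the sources used here. The sample records also list CASAVA and DESeq2. The counts carry the label "outlierout", which is not explained, and 0 columns were left aside.

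Symbols were matched to GENCODE M21 (all 47 members). HOMO was compared with WT in edgeR 4.0.16 (R 4.3.3) by the quasi-likelihood F test over the whole table, with TMM normalization, filterByExpr by genotype (14150 of 54532 entries) and Benjamini-Hochberg adjustment. The thresholds for DEGs were the study's (0.05 for the adjusted p, 0.6 for the log2 fold change in either direction). Standard errors are the log2 fold change over the square root of F. Log2 CPM has a prior count of 2. Where all libraries of a genotype had at most 3 counts, the fold is a lower bound taken at that floor, which covers counting error only. Exact tests of members and intracellular genes outside the fit used all 70 ways to split the 8 libraries evenly. They take the libraries as independent, and their p-values are too small if near-identical libraries share a mouse or culture. Promoter sequences came from RefSeq (GRCm38.p6), trimmed to bases before the first annotated transcript start. Figures used Python 3.11.15 and matplotlib 3.10.9.

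Alternatives were DESeq2 1.42.0, RLE normalization, limma-voom with sample weights (limma 3.58.1), no filter, CPM above 1 in at least 4 libraries, a replicate block, no fold change threshold, each library left out, and near-identical libraries summed (its DESeq2 fit was added after seeing the data). The code was tested on simulated data. Same-numbered WT and HOMO libraries correlated at −0.124 to 0.0141, so numbers were not taken as pairs. Members and lists were chosen with earlier results of these data known. Values in every library are given for members called by edgeR or DESeq2, without overlap, named in the study's text or among the 5 highest per length, with their partners, and of the intracellular list the called genes are named, with others named after their values were seen. Cell type marker lists were those of fibroblasts, macrophages, T cells, B cells, and endothelial, epithelial, mesothelial and smooth muscle or pericyte cells.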

Additional observations from a re-analysis of the deposited data

Results flagged for a closer look

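In 62 groups of 4 libraries, formed in each genotype by the 26 tested members and the 5 called intracellular genes, 6 had 1 library far from the other 3. For independent libraries, chance would give this in about 5% of groups. That rate does not apply here, because libraries of a close pair are alike and all groups share the same libraries. All values are log2 CPM. WT3 stood apart in 4 genes. It was at 7.99 for *Ltbr* (7.15 to 7.20 in the other WT libraries), at 4.15 for *Tnfsf13b* (3.25 to 3.40), at 2.92 for *Tnfrsf22* (3.66 to 3.74) and at 4.44 for *Nfkbie* (3.71 to 3.81). HOMO3 was at −0.15 for *Tnfsf8* (0.96 to 1.1 in the other HOMO libraries), and HOMO2 at 1.40 for *Eda* (1.74 to 1.76).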

How the results depend on the processing

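Beside the 2 members called by edgeR (12.1% of all genes), DESeq2 called 11 (16.5%), limma-voom 13 (25.3%) and edgeR without a filter 4 (5.28%). With near-identical libraries summed, edgeR called 0 members and 0 of all 16130 tested genes. An unadjusted p under 0.05 was reached in this fit by 4 of 34 tested members and 2057 of all tested genes. DESeq2 on the summed units called 2 members (*Fas* and *Tnfrsf9*), beside 4.69% of all genes. With each library left out, 2 to 9 members were called (9 without WT3, 5 without WT4), and 3.52% (without HOMO1) to 15.0% (without WT3) of all genes. The 5 intracellular genes called became 3 without a filter, 1 (*Map3k5*) with the replicate block, 0 with libraries summed (4 at an unadjusted p under 0.05, and 0 called by DESeq2), and 0 to 8 with each library left out (0 without HOMO1, 2 without HOMO2, 3 without WT1, WT2 or HOMO3, 8 without WT4). The causes were not tested. The replicate block left the members called at 2 and moved the calls over all genes from 1716 to 947; 0 of 4 same-numbered pairs correlated above 0.1, and 0 libraries of either genotype correlated best with their own number. Of 526 log2 fold changes of single genes under alternatives, 443 kept direction and side of the threshold, 39 were weaker, 28 stronger and 16 reversed, all 16 in 7 genes that were not called. *Tnfrsf1a* went to −0.02 with libraries summed (edgeR and DESeq2), −0.05 without WT1, −0.03 without WT2 or HOMO2, and −0.01 without HOMO1. Under limma-voom, *Tnfsf12* went to 0.08, *Tnfsf18* to −0.15, *Tnfrsf25* to 0.52 and *Tnfrsf18* to −0.11. *Tnfrsf25* was 0.49 with the replicate block and, without WT4, 1.04. With each library left out, *Tnfsf13b* ranged from −0.26 to 0.08 (above 0 without WT3), *Tnfsf9* from −0.17 to 0.41 (below 0 without WT2 at −0.02, WT4 at −0.17 and HOMO2 at −0.14) and *Tnfrsf25* from −0.54 to 1.04. At this depth, differences in the 21 members outside the edgeR test were mostly not detectable.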
